A study of Homo sapiens with 32 samples.

Results

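The tripartite motif (TRIM) genes were examined in all 16 groups of an irradiation study. Gene symbols made of TRIM, a number and at most 1 further letter matched 74 of the 60332 genes of the count table. The 47 with at least 100 counts summed over the 32 libraries were kept as members, and 27 fell below that minimum, 7 of them with 0 counts. Just inside the minimum lay TRIM72 with 117, TRIM55 with 119 and TRIM73 with 126 summed counts, and just outside it TRIM31 with 96, TRIM74 with 83 and TRIM71 with 73. Members were split into 10 interferon-linked genes (TRIM5, TRIM14, TRIM21, TRIM22, TRIM25, TRIM26, TRIM34, TRIM38, TRIM56 and TRIM69), 8 p53-linked genes (TRIM8, TRIM13, TRIM22, TRIM24, TRIM28, TRIM29, TRIM32 and TRIM59) and 30 others. TRIM22 stood in both lists. The p53-linked list holds reported p53 targets together with proteins that act on p53, so it is not a list of p53 target genes alone. Beside them stand 31 interferon-stimulated genes, such as IFIT1 and ISG15, and 24 p53 target genes, such as CDKN1A and MDM2. All lists came from background knowledge but were written with earlier results of these data known. Their counts and medians therefore describe the lists and are not independent tests.

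TRIM proteins are mostly RING-type E3 ubiquitin ligases in which the RING is followed by B-box zinc fingers and a coiled coil, with a variable C-terminal domain that sets the target. Several are transcribed in response to interferon and act against viruses, either on the virus itself or on the sensing pathways that run through RIG-I, cGAS and STING. Others bind p53 or its ligase MDM2, and TRIM22 is known both as an interferon-stimulated gene and as a p53 target.

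Polyadenylated RNA was sequenced from 2 human lines with 2 libraries per group: MCF10A, a non-transformed breast epithelial line, and hTERT RPE-1, a telomerase-immortalised retinal pigment epithelial line. Irradiated cells received 10 Gy, and the groups ask how DNA repair, cell cycle control and cGAS-STING sensing shape the response. The first MCF10A experiment held cGAS knockout (KO), STING KO and XRCC4 KO cells at 5 days, wild-type (WT) cells with a CDK1 inhibitor (CDK1i) at 5 days, and WT cells that were untreated or irradiated with DMSO and collected at 3 or 5 days. The second held, all at 3 days after 10 Gy, XRCC4 p53 double-knockout cells (DKO) with and without an ATR inhibitor (ATRi), XRCC4 KO cells with and without ATRi, p53 KO cells and WT cells. In RPE-1, a group labelled WT cGAS, p53 KO cells and WT cells were compared, all irradiated and all with ATRi for 3 days. Membership of the 3 experiments was taken from the series text and the sample names. Each KO line was raised from a single cell after lentiviral CRISPR-Cas9 and no clone is named, so genotype and clone cannot be told apart, and no KO group was measured without irradiation. DMSO is named only for the irradiated WT groups of the first experiment. Whether paired libraries stem from separate cultures is not labelled, so p-values measure only the spread between these libraries.

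Total counts ran from 5590061 to 18585999 per library. In the first experiment the 2 libraries of the WT and STING KO groups lay far apart: a chi-square of their counts came to 21.5 to 45.1 per gene, against at most 3.38 in every other group. Beside this, 5 mesenchymal markers summed to 742 to 5713 CPM (counts scaled to library size, TMM-adjusted) in the second library of each first-experiment WT group and to 213 to 572 CPM in the first, and the part of this difference in the results was not tested. cGAS RNA was 1.24 and 1.30 CPM in cGAS KO, against 17.2 and 15.1 CPM in WT at 5 days, and STING RNA was 9.97 and 9.16 CPM in STING KO, against 83.4 and 53 CPM. XRCC4 RNA was 7.63 and 6.37 CPM in XRCC4 KO, against 9.62 and 7.41 CPM in WT at 5 days, and 8.80 and 8.36 CPM in XRCC4 KO, against 7.06 and 7.14 CPM in WT at 3 days, so the mRNA level does not check that label. In RPE-1, cGAS RNA was 339 and 345 CPM in WT cGAS, against 0.143 and 6.35 CPM in WT, so the second WT library held more of it than the first. MCF10A expressed all 9 epithelial markers. In RPE-1, the epithelial markers CDH1 and EPCAM and the retinal genes RPE65, TYR, RLBP1 and TTR were at or near 0 CPM. Levels of the other listed markers in RPE-1, among them BEST1, MITF, PMEL, KRT8 and KRT18 of the retinal list, are not given here, so the named genes do not stand for their lists. Each experiment was normalised apart, so CPM values are not set against each other across the 3 experiments.

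Short stretches from the start sites of 6 interferon-linked members are shown because they hold the core of the interferon-stimulated response element (ISRE), spelled GAAANNGAAA on either strand. They come from RefSeq promoter windows on GRCh38.p14, which reach from 250 bases before to 50 bases after a start, and are written 5′ to 3′ on the gene's own strand with the matched bases in capitals, where overlapping matches run together. The stretches lie at chr9:98119223-98119268 (TRIM14, minus strand), chr11:4393663-4393692 (TRIM21, minus), chr6:30213565-30213620 (TRIM26, minus), chr11:5624891-5624940 (TRIM34, plus), chr11:5685075-5685121 (TRIM5, minus) and chr15:44736446-44736495 (TRIM69, plus).
TRIM14: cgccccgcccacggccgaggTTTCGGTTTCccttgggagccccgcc
TRIM21: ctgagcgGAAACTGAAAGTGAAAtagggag
TRIM26: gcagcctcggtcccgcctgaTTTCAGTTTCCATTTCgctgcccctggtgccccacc
TRIM34: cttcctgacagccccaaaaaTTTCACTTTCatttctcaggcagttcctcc
TRIM5: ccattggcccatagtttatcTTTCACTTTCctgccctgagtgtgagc
TRIM69: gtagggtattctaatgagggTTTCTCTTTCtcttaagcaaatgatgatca

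Windows were found for 34 of the 47 members. The ISRE core was in 6 of 9 interferon-linked members with a window, in 3 of 23 others (TRIM2, TRIM16 and TRIM44), in 0 of 2 p53-linked members, and in 4.376% of the 27305 genes with a window. TRIM34 had 2 windows and the match in 1 of them. The gamma-activated site TTCNNNGAA was in 0 of the 9 interferon-linked members and in 9.376% of all genes. A p53 element (2 half-sites 0 to 13 bases apart) was found in 0 of the 34 members and in 10 of all 27305 genes (0.03662%). So rare a match cannot show whether members lack p53 sites. These matches describe letters in a window and do not show binding. TRIM22, TRIM8, TRIM13, TRIM24, TRIM28 and TRIM29 were among the 13 members without a window.

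FPKM, which the authors scaled by transcript length and library size, allowed levels to be compared between genes. Over the 26 MCF10A libraries TRIM28, the co-repressor of KRAB zinc finger proteins, was the most abundant member with a median of 418 FPKM, a lowest value of 290.5 and a highest of 852. TRIM29, which lacks a RING and is a basal epithelial gene, followed with a median of 356 FPKM and a range of 146 to 764. TRIM22 came next with a median of 97.8 FPKM and the widest relative range of these 3 genes, from 2.49 to 348. In RPE-1, TRIM28 was again first with a median of 423 FPKM, followed by TRIM25 with 113 and TRIM22 with 104. TRIM29 ranked 43rd there, with a median of 0.806 FPKM and a highest value of 3.33. TRIM15 had 0 counts in all 6 RPE-1 libraries, against a median of 0.406 FPKM in MCF10A. TRIM72, the muscle membrane-repair gene, and TRIM55, a muscle RING finger gene, were the lowest in MCF10A with medians of 0.00700 and 0.0260 FPKM. TRIM46, known from the axon initial segment, had a median of 0.155 FPKM in MCF10A and of 6.63 FPKM in RPE-1, where it ran from 5.18 to 7.28 FPKM. The lines were measured in separate experiments, so line and experiment cannot be told apart.

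Calls, and the words rose and fell, rest on a Benjamini-Hochberg adjusted p below 0.05 across every gene tested with edgeR's quasi-likelihood test, and log2 fold changes carry their standard error (SE). Of the 47 members, 46 were tested in at least 1 experiment, 41 in all 3, and each of the 46 was called in at least 1 of 18 comparisons. TRIM73 was tested in none. TRIM22, TRIM25 and TRIM56 were called in 14 comparisons each, more than any other member. Single comparisons called from 0.263% to 71.8% of all genes tested. How many of all genes were called in at least 1 comparison was not counted, so these counts are not shown to be particular to the family. In bulk RNA, fewer cells of a kind and less RNA per cell cannot be told apart.

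**Figure D1:**
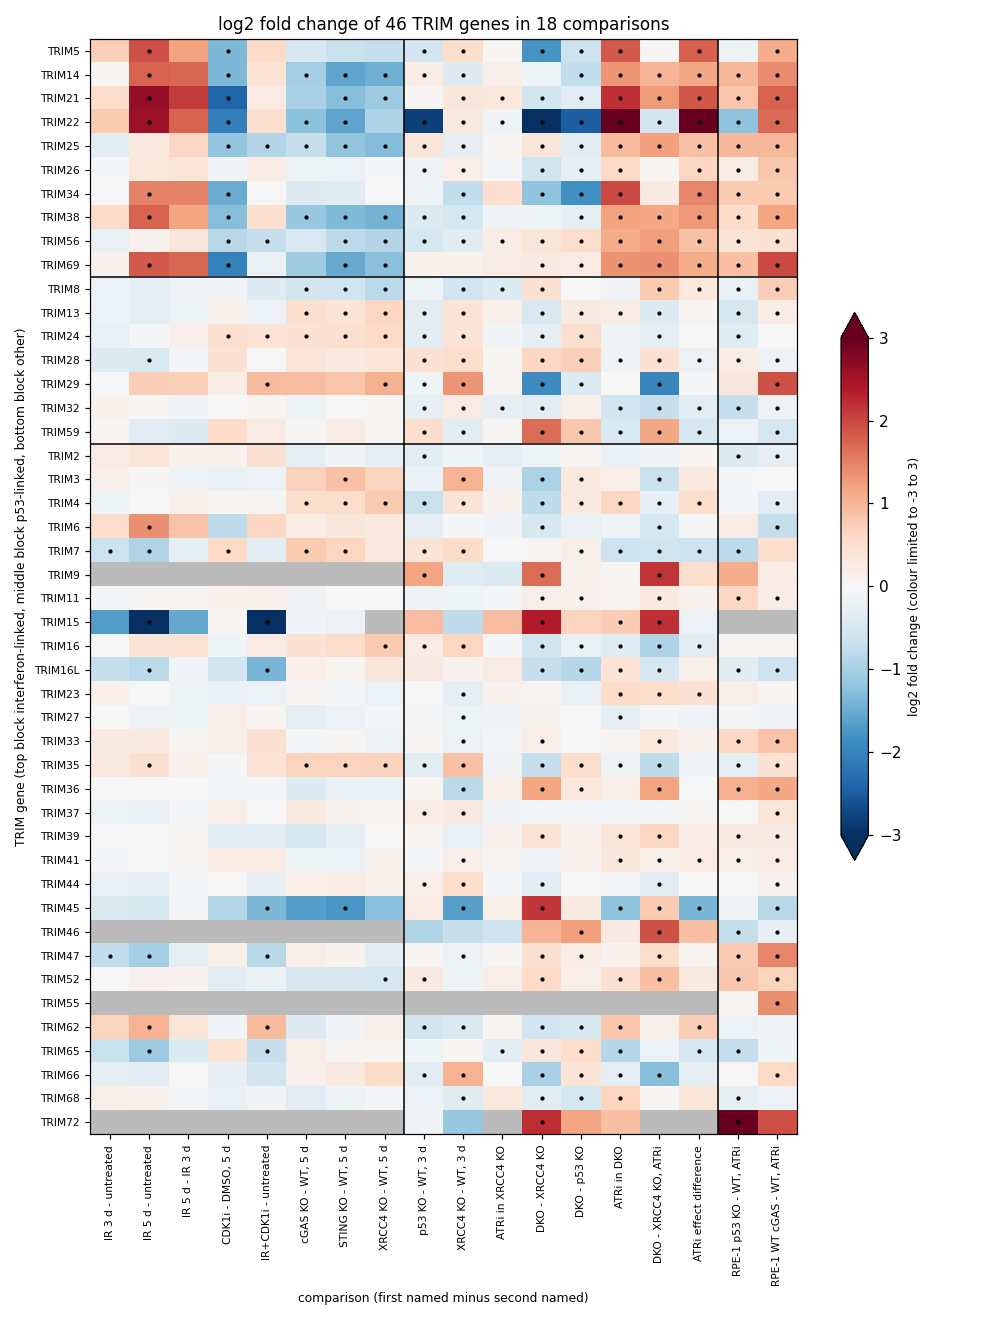
Log2 fold changes of 46 TRIM genes (down the page, interferon-linked at the top, then p53-linked, then others) in 18 comparisons (across, first-named group minus second, lines between the 3 experiments), with colour limited to 3 in each direction, a dot for an adjusted p below 0.05, and grey where a gene was not tested or 1 group had 0 counts. The top block is red at 5 days after irradiation, for ATRi in the DKO and for WT cGAS in RPE-1, and TRIM22 is blue wherever p53 was lost.

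At 3 days after 10 Gy in WT MCF10A, 2 of 42 tested members fell and 0 rose, beside 3.65% of all genes called higher and 2.87% lower (6.52% in all). TRIM47 was 32.4 and 31.6 CPM at 3 days and 54.6 and 51.9 CPM untreated, a fall of 0.73 ± 0.18 on the log2 scale (SE). TRIM7, a ligase first found through glycogenin, was 27.7 and 23.8 CPM at 3 days and 41.4 and 39.3 CPM untreated, a fall of 0.64 ± 0.12. Both calls were lost when the 4 libraries were fitted alone, without untreated replicate 1 or without 3-day replicate 2, and TRIM47's also without either of the other 2 libraries. A gene on the opposite strand covers 51.5% of the exonic bases of TRIM47 in the GENCODE annotation, and reads of such a pair cannot be told apart where the counting is not stated to use strand. Of the 10 interferon-linked members 0 were called by edgeR and 0 by DESeq2, and 3 had an unadjusted p below 0.05. Of the 8 p53-linked members 0 were called by either tool and 3 had an unadjusted p below 0.05, while 14 of 24 p53 target genes rose. With RLE in place of TMM scaling, 3738 of the 15190 genes had an unadjusted p below 0.05. The 3 members of each list are therefore not shown to exceed the background. Of 31 interferon-stimulated genes 0 were called here, with 20 at an unadjusted p below 0.05.

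By 5 days the interferon-linked members were higher: 7 of 10 rose and 0 fell, with a median log2 fold change of 1.77, against 0.00 over all genes tested. All 31 interferon-stimulated genes rose in the same comparison. TRIM22 was 605 and 284 CPM at 5 days and 84.8 and 65.8 CPM untreated, a log2 fold change of 2.56 ± 0.36 (adjusted p = 0.00151, edgeR). TRIM21, the cytosolic receptor for antibody-coated virus, was 89.3 and 36.5 CPM at 5 days and 9.22 and 11.1 CPM untreated, a log2 fold change of 2.63 ± 0.39 (adjusted p = 0.00165, edgeR). The groups did not overlap for either gene, and the first 5-day library was well above the second for both.

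TRIM5, which restricts retroviral capsids, was 108 and 51.7 CPM at 5 days, against 21.6 and 20.3 CPM untreated, and rose by 1.93 ± 0.29. TRIM69 rose by 1.83 ± 0.34, TRIM14 by 1.77 ± 0.29, TRIM38 by 1.76 ± 0.24 and TRIM34 by 1.48 ± 0.40. TRIM25 (0.29 ± 0.19), TRIM26 (0.31 ± 0.21) and TRIM56 (0.12 ± 0.18) were not called. The calls of TRIM34 and TRIM69 were lost when the 4 libraries were fitted alone (highest adjusted p over the alternatives 0.160 for TRIM34 and 0.0570 for TRIM69, edgeR or DESeq2), and TRIM34's also without untreated replicate 1 or without 5-day replicate 1. The deposited interval of TRIM34 is shared with TRIM6, and a TRIM6-TRIM34 readthrough transcript covers 83.0% of its exonic bases in the GENCODE annotation, so TRIM34 and TRIM6 (1.37 ± 0.38) counts are uncertain. TRIM5 and TRIM22 also share one deposited interval (chr11:5684787-5959849, hg19), but no exon of either overlaps one of the other in that annotation.

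Outside that list, 3 others rose and 5 fell at 5 days, and p53-linked TRIM28 fell by 0.45 ± 0.14. In all, 10 members rose and 6 fell of 42, beside 15.1% of all genes called higher and 14.3% lower (29.3% in all). TRIM15 had 3 and 3 counts at 5 days (0.206 and 0.178 CPM), against 2.12 and 1.52 CPM untreated, and fell by 3.22 ± 0.77. TRIM65, a ligase for the RNA sensor MDA5, fell by 1.09 ± 0.19, TRIM47 by 1.01 ± 0.18, TRIM7 by 0.90 ± 0.12 and TRIM16L by 0.81 ± 0.26. TRIM15, TRIM16L and TRIM28 were not called without untreated replicate 1 or without either 5-day library, and TRIM16L is close in sequence to TRIM16, so reads could be split between them. With the WT groups fitted alone and the replicate number as a block, TRIM16L (adjusted p = 0.0896, edgeR) and TRIM35 (0.0587) were not called, and TRIM29 was (0.76, adjusted p = 0.00641).

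Between 5 and 3 days, edgeR called 0 of 42 members, beside 0.217% of all genes called higher and 0.0461% lower (0.263% in all). Of the 10 interferon-linked members 8 had an unadjusted p below 0.05, and the median log2 fold change of the 10 was 1.36. With RLE scaling, 2215 of the 15190 genes had an unadjusted p below 0.05. TRIM22 was 605 and 284 CPM at 5 days and 160.5 and 97.9 CPM at 3 days, without overlap, with 1.77 ± 0.35 (adjusted p = 0.0673, edgeR). DESeq2 called 7 members higher in this comparison, all interferon-linked, beside 430 of all genes called either way. With the 4 WT groups of this experiment fitted alone and the replicate number as a block, edgeR called 3 members higher, TRIM14 (1.70, adjusted p = 0.00136), TRIM69 (1.71, adjusted p = 0.0221) and TRIM29 (0.73, adjusted p = 0.0472). That fit called 205 of all genes, against 40 in the main fit.

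**Figure D2:**
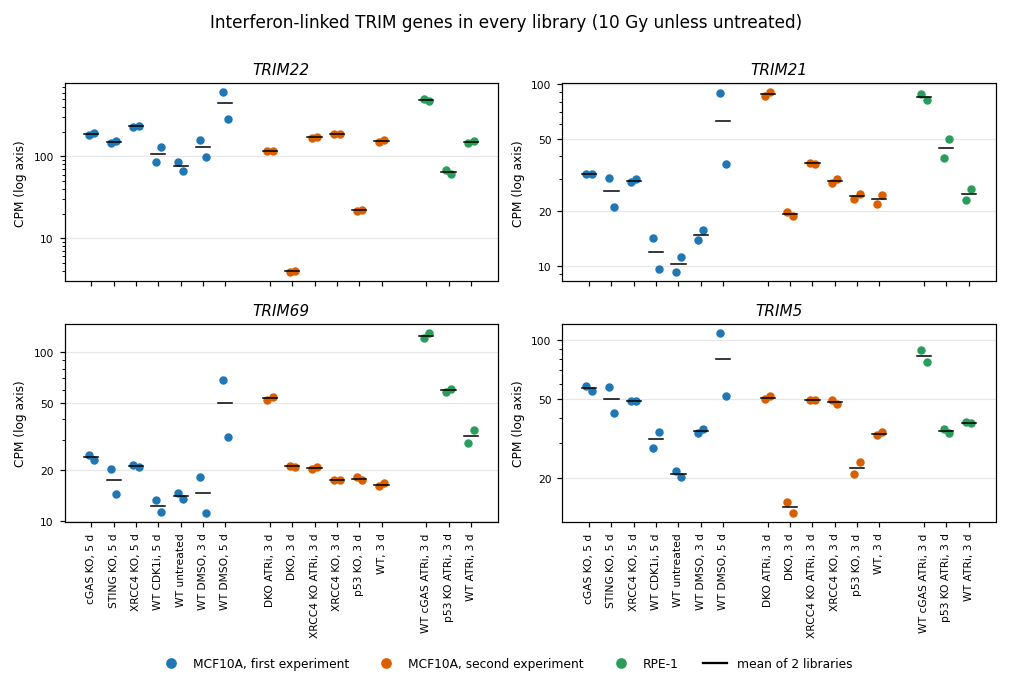
CPM (log axis) of TRIM22, TRIM21, TRIM69 and TRIM5 in every library of the 16 groups, with points for libraries, a bar for the mean of 2, and colours for the 3 experiments, which were normalised apart. The 2 untreated, 3-day and 5-day WT libraries show the spread within the first experiment, TRIM22 lies at 115 and 117 CPM in the DKO with ATRi and at 3.87 and 4.02 CPM in the DKO.

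With CDK1i, 9 of the 10 interferon-linked members fell relative to DMSO at 5 days, with a median log2 fold change of -1.35, against -0.04 over all genes. Over the family 2 members rose and 9 fell of 42, beside 4.73% of all genes called higher and 7.37% lower (12.1% in all). TRIM22 was 86.0 and 129 CPM with CDK1i and 605 and 284 CPM with DMSO (-2.05 ± 0.35, adjusted p = 0.00893, edgeR). TRIM21 was 14.3 and 9.57 CPM with CDK1i and 89.3 and 36.5 CPM with DMSO (-2.39 ± 0.37). TRIM69 followed at -2.03 ± 0.34, TRIM34 at -1.48 ± 0.38, TRIM5 at -1.35 ± 0.28, TRIM14 at -1.35 ± 0.29, TRIM38 at -1.28 ± 0.24, TRIM25 at -1.17 ± 0.19 and TRIM56 at -0.83 ± 0.19. TRIM26 (-0.10 ± 0.21) was the one not called. The groups did not overlap for any of the 9.

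TRIM7 rose by 0.59 ± 0.12 with CDK1i, and TRIM24, a bromodomain protein that marks p53 for degradation, rose by 0.48 ± 0.09. Fitted on these 4 libraries alone, edgeR called 0 members, with 12 at an unadjusted p below 0.05, and adjusted p of the 9 interferon-linked members between 0.145 and 0.189. Of all genes it called 0 there, with 3325 at an unadjusted p below 0.05. With the 4 WT groups fitted alone it called 0 members and 146 of all genes. Once the replicate number was added as a block, it called 11 members, the same 9 among them, and 1707 of all genes. Without the second CDK1i library 3 of the 9 were called, and without the first DMSO library 4. Set against untreated cells, irradiated CDK1i cells had 3 members higher and 7 lower of 42, beside 13.5% of all genes called higher and 15.3% lower (28.8% in all). Among interferon-linked members 0 rose and 2 fell there, TRIM25 by 0.87 ± 0.19 and TRIM56 by 0.71 ± 0.19. TRIM62 (0.96 ± 0.21), TRIM29 (0.95 ± 0.32) and TRIM24 (0.41 ± 0.09) were higher, and TRIM15 (-3.18 ± 0.77), TRIM16L (-1.39 ± 0.27), TRIM45 (-1.34 ± 0.43), TRIM47 (-0.83 ± 0.18) and TRIM65 (-0.69 ± 0.19) were lower. None of these 10 calls was made on the 4 libraries alone, where 11 members had an unadjusted p below 0.05. Of all genes 1 was called there, and 3686 had an unadjusted p below 0.05. With the WT groups fitted alone and the replicate block, TRIM45 was not called (adjusted p = 0.0518, edgeR) and TRIM14 was (0.45, adjusted p = 0.0323). The comparisons with CDK1i share the untreated or DMSO libraries with those above.

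At 5 days 7 of the 10 interferon-linked members fell in STING KO, 6 in XRCC4 KO and 4 in cGAS KO, and 0 rose in any of the 3. All 3 comparisons use the same 2 WT libraries. The medians over the list were -1.24 in STING KO, -1.01 in XRCC4 KO and -0.84 in cGAS KO, against -0.01, -0.03 and -0.02 over all genes. Over the family, 6 members rose and 9 fell of 42 in STING KO, beside 7.43% of all genes called higher and 7.73% lower (15.2% in all). In XRCC4 KO 6 rose and 8 fell, beside 12.4% of all genes in each direction (24.7% in all), and in cGAS KO 5 rose and 5 fell, beside 6.65% of all genes higher and 6.88% lower (13.5% in all).

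TRIM22 was 146 and 152 CPM in STING KO, 230.0 and 235 CPM in XRCC4 KO and 183 and 195 CPM in cGAS KO, against 605 and 284 CPM in WT. Every KO library lay below both WT libraries. TRIM22 fell by 1.58 ± 0.35 in STING KO (adjusted p = 0.0159, edgeR) and by 1.23 ± 0.34 in cGAS KO (adjusted p = 0.0430), and had -0.93 ± 0.34 in XRCC4 KO (adjusted p = 0.0724). TRIM25, the ligase that modifies RIG-I, was lower in all 3, at 144 and 153 CPM in STING KO, 139 and 135 CPM in XRCC4 KO and 218 and 197 CPM in cGAS KO, against 415 and 263 CPM in WT. It fell by 1.19 ± 0.19, 1.31 ± 0.19 and 0.71 ± 0.19 in that order. TRIM38 fell by 1.32 ± 0.24 in STING KO, by 1.42 ± 0.24 in XRCC4 KO and by 1.14 ± 0.24 in cGAS KO, and TRIM14, an adaptor of mitochondrial antiviral signalling that lacks a RING, fell by 1.59 ± 0.29, 1.46 ± 0.29 and 1.02 ± 0.29.

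TRIM69, TRIM21 and TRIM56 also fell in STING KO (by 1.52 ± 0.34, 1.29 ± 0.36 and 0.80 ± 0.19) and in XRCC4 KO (by 1.25 ± 0.33, 1.09 ± 0.36 and 0.88 ± 0.19), and none of the 3 was called in cGAS KO. TRIM5, TRIM26 and TRIM34 were not called in any of the 3 KO groups. With only the 4 libraries of a comparison, 0 of the interferon-linked members were called in cGAS KO or in STING KO and 4 in XRCC4 KO, and without the first WT library 0, 3 and 3. Without the second WT library 7, 8 and 8 were called in that order. The cGAS KO list also gave 0 without either of its own libraries, and the other 2 between 2 and 4.

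Members that moved together across the 3 KO lines included TRIM24 (0.50 ± 0.09 in STING KO, 0.59 ± 0.09 in XRCC4 KO and 0.44 ± 0.09 in cGAS KO), TRIM13, an endoplasmic reticulum ligase (0.39 ± 0.11, 0.63 ± 0.11 and 0.47 ± 0.11), TRIM35 (0.67 ± 0.14, 0.69 ± 0.14 and 0.66 ± 0.14) and TRIM4 (0.53 ± 0.14, 0.79 ± 0.14 and 0.52 ± 0.13), which all rose. TRIM8, which stabilises p53, fell in each, by 0.60 ± 0.16, 0.81 ± 0.16 and 0.56 ± 0.16. TRIM7 rose in STING KO (0.65 ± 0.12) and in cGAS KO (0.78 ± 0.12), TRIM3 in STING KO (0.89 ± 0.23), and TRIM29 (1.08 ± 0.32) and TRIM16 (0.79 ± 0.24) in XRCC4 KO, where TRIM52 fell by 0.53 ± 0.16. TRIM45 fell by 1.75 ± 0.52 in STING KO, and that call was lost with DESeq2. Calls held under every alternative were TRIM7 in STING KO and in cGAS KO, and TRIM4, TRIM13, TRIM24, TRIM25 and TRIM38 in XRCC4 KO, whereas each other call named here was lost under at least 1. Beside TRIM29, 9 epithelial markers summed to 29027 and 28306 CPM in XRCC4 KO, against 19504 and 18345 CPM in WT at 5 days, and their part in the result was not tested.

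In p53 KO cells of the second MCF10A experiment TRIM22 fell more than any other member. It was 21.5 and 22.4 CPM in p53 KO and 148 and 159 CPM in WT at 3 days, a fall of 2.81 ± 0.06 on the log2 scale (adjusted p = 8.47e-23, edgeR). Over the family 10 members rose and 14 fell of 45, beside 25.9% of all genes called higher and 27% lower (52.9% in all), so the members' share was near the background. All 24 p53 target genes fell, whereas the list of 31 interferon-stimulated genes had 27 higher and 3 lower. TRIM22 moved in the direction of the p53 targets and against most interferon-stimulated genes, and the source of its fall was not tested.

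Of the other interferon-linked members, TRIM5 (0.58 ± 0.08), TRIM56 (0.52 ± 0.05), TRIM38 (0.40 ± 0.06) and TRIM26 (0.15 ± 0.05) fell by those amounts in p53 KO, and TRIM25 and TRIM14 rose by 0.36 ± 0.04 and 0.22 ± 0.06. TRIM5 was 20.9 and 24.0 CPM in p53 KO and 32.8 and 34.0 CPM in WT, without overlap. Of the p53-linked members besides TRIM22, TRIM24 (0.35 ± 0.09), TRIM13 (0.31 ± 0.08), TRIM32 (0.27 ± 0.07) and TRIM29 (0.15 ± 0.04) fell, TRIM59 (0.53 ± 0.11) and TRIM28 (0.44 ± 0.05) rose, and TRIM8 was not called (-0.15 ± 0.06). TRIM4 fell by 0.68 ± 0.06 and TRIM62 by 0.54 ± 0.13. TRIM9, a brain-enriched ligase at 1.26 and 1.38 CPM in p53 KO and 0.415 and 0.702 CPM in WT, rose by 1.19 ± 0.40, and TRIM7 rose by 0.39 ± 0.07. The calls of TRIM26 and TRIM29 were lost without WT replicate 2, that of TRIM32 without p53 KO replicate 2, and that of TRIM9 with DESeq2, without WT replicate 1 or without p53 KO replicate 2.

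On the XRCC4 KO background TRIM22 fell as well. TRIM22 was 3.87 and 4.02 CPM in the DKO and 187 and 188 CPM in XRCC4 KO, a fall of 5.57 ± 0.08 (adjusted p = 1.36e-26, edgeR), and the DKO also lay 2.47 ± 0.11 below p53 KO. Of 45 members 17 rose and 19 fell in the DKO against XRCC4 KO, beside 32.2% of all genes called higher and 32.7% lower (64.9% in all). TRIM29 was 231 and 218 CPM in the DKO and 817 and 842 CPM in XRCC4 KO, and fell by 1.89 ± 0.04 without overlap. TRIM5 was 15.1 and 13.3 CPM in the DKO and 49.3 and 47.5 CPM in XRCC4 KO (-1.76 ± 0.08), TRIM34 fell by 1.21 ± 0.24 and TRIM66, a TIF1-type co-repressor, by 0.98 ± 0.09. Beside TRIM29, the 9 epithelial markers summed to 21375 and 20691 CPM in the DKO, against 31121 and 31176 CPM in XRCC4 KO, with 3 of 9 higher and 6 lower, and their part in the result was not tested.

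The interferon-linked members split in this comparison, with 3 higher (TRIM25 by 0.36 ± 0.04, TRIM56 by 0.36 ± 0.05, TRIM69 by 0.26 ± 0.08) and 5 lower (TRIM22, TRIM5 and TRIM34 above, TRIM21 by 0.60 ± 0.08, TRIM26 by 0.59 ± 0.05). TRIM14 and TRIM38 were not called. The list of 31 interferon-stimulated genes had 18 higher and 4 lower. TRIM59, a membrane-bound ligase, was 22.5 and 23.7 CPM in the DKO and 7.55 and 6.95 CPM in XRCC4 KO (1.67 ± 0.11). In the GENCODE annotation SMC4 on the opposite strand covers 19.8% of the exonic bases of TRIM59, and AC079594.2 on the same strand 14.5%. TRIM59 counts are therefore uncertain in every comparison, and the part of such reads was not tested. TRIM45 rose by 2.13 ± 0.27, TRIM15 by 2.37 ± 0.43 at 1.85 and 2.44 CPM in the DKO and 0.460 and 0.351 CPM in XRCC4 KO, and TRIM9 by 1.68 ± 0.43. TRIM72 had 12 counts in the 2 DKO libraries and 2 in the 2 XRCC4 KO libraries, a ratio of 5.04 with a 95% exact interval of 1.12 to 46.4 that covers counting error only, and its call was lost without any 1 of the 4 libraries and with DESeq2. The call of TRIM69 was lost with DESeq2.

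Of the remaining p53-linked members, TRIM28 rose by 0.62 ± 0.04 and TRIM8 by 0.45 ± 0.07, and TRIM13 (0.47 ± 0.08), TRIM32 (0.35 ± 0.07) and TRIM24 (0.28 ± 0.08, not called with DESeq2) fell. TRIM28 was 481 and 469 CPM in the DKO, 308 and 311 CPM in XRCC4 KO, 303 and 279 CPM in p53 KO and 216 and 214 CPM in WT, so it was higher in each KO group than in WT and highest where both genes were lost. It rose by 0.53 ± 0.05 in XRCC4 KO and by 0.44 ± 0.05 in p53 KO against the same WT libraries.

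**Figure D3:**
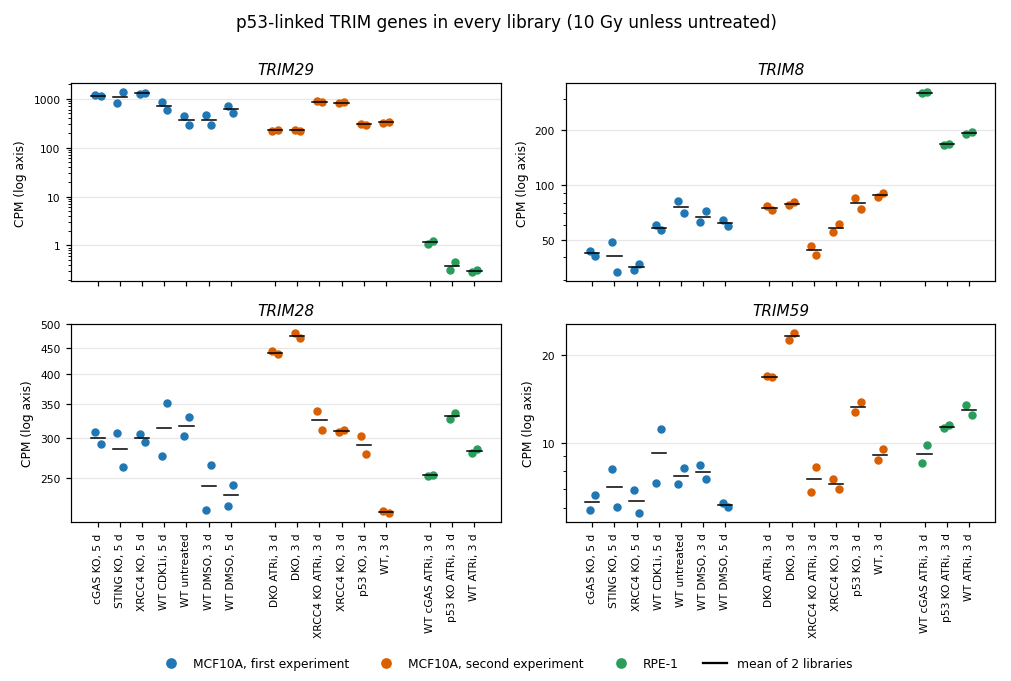
CPM (log axis) of TRIM29, TRIM8, TRIM28 and TRIM59 in every library, with points for libraries, a bar for the mean of 2, and colours for the 3 experiments, which were normalised apart. TRIM28 and TRIM59 are highest in the DKO within the second experiment, and TRIM29 is above 200 CPM in every MCF10A library.

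XRCC4 KO alone, at 3 days, had 33 of 45 members called against WT, 18 higher and 15 lower, beside 28.6% of all genes called higher and 27.5% lower (56.1% in all). Of the interferon-linked members 4 rose (TRIM5 by 0.53 ± 0.07, TRIM21 by 0.33 ± 0.08, TRIM22 by 0.28 ± 0.04, TRIM26 by 0.20 ± 0.05) and 5 fell (TRIM34 by 0.74 ± 0.18, TRIM38 by 0.53 ± 0.07, TRIM14 by 0.38 ± 0.06, TRIM56 by 0.36 ± 0.05, TRIM25 by 0.30 ± 0.04), while TRIM69 was not called. All 31 interferon-stimulated genes fell in the same comparison, so the 4 that rose moved against that list, and 20 of 24 p53 target genes rose. TRIM22 was 187 and 188 CPM in XRCC4 KO and 148 and 159 CPM in WT. TRIM29 rose by 1.33 ± 0.04 to 817 and 842 CPM, against 321 and 340.5 CPM in WT, beside summed epithelial markers of 31121 and 31176 CPM in XRCC4 KO and 16575 and 16882 CPM in WT, whose part was not tested. TRIM66 (1.05 ± 0.10), TRIM3 (1.04 ± 0.10), TRIM35 (0.89 ± 0.05) and TRIM16 (0.65 ± 0.06) rose as well. TRIM45 fell by 1.62 ± 0.30, TRIM36 by 0.81 ± 0.16 and TRIM8, which is p53-linked, by 0.61 ± 0.07. Of the other p53-linked members TRIM28 rose by 0.53 ± 0.05, TRIM13 by 0.42 ± 0.08, TRIM24 by 0.40 ± 0.08 and TRIM32 by 0.25 ± 0.07, and TRIM59 fell by 0.34 ± 0.13, the calls of TRIM32 and TRIM59 being lost with DESeq2.

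Against p53 KO, the DKO had 16 members higher and 13 lower of 45, beside 24.6% of all genes called higher and 25% lower (49.7% in all). Of the interferon-linked members 8 fell and 2 rose (TRIM56 by 0.52 ± 0.05 and TRIM69 by 0.24 ± 0.08), and the call of TRIM69 was lost with DESeq2 and without any of 3 libraries. All 31 interferon-stimulated genes fell. TRIM22 was 3.87 and 4.02 CPM in the DKO and 21.5 and 22.4 CPM in p53 KO. TRIM34 fell by 1.81 ± 0.21, TRIM16L by 0.85 ± 0.14, TRIM14 by 0.74 ± 0.06 and TRIM5 by 0.65 ± 0.09, with smaller falls of TRIM21, TRIM25, TRIM38 and TRIM26 (0.24 to 0.31). TRIM46 (1.22 ± 0.48, at or below 0.931 CPM in these groups), TRIM59 (0.81 ± 0.09), TRIM28 (0.71 ± 0.04), TRIM65 (0.54 ± 0.07) and TRIM35 (0.53 ± 0.06) rose, and TRIM46 was not called without any 1 of the 4 libraries or with DESeq2. TRIM24 (0.47 ± 0.08) and TRIM13 (0.27 ± 0.08) rose too, the second not with DESeq2, TRIM29 fell by 0.41 ± 0.04, and TRIM8 and TRIM32 were not called.

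In XRCC4 KO, 2 members rose and 4 fell of 45 with ATRi against no ATRi, beside 6.67% of all genes called higher and 10.3% lower (17% in all). Of 31 interferon-stimulated genes 21 rose with ATRi. TRIM21 rose by 0.32 ± 0.07 (36.6 and 36.5 CPM with ATRi, 28.7 and 29.9 CPM without) and TRIM56 by 0.22 ± 0.05, and both calls were lost without the first XRCC4 KO library. TRIM8 fell by 0.40 ± 0.08, TRIM65 by 0.33 ± 0.08, TRIM32 by 0.24 ± 0.07 and TRIM22 by 0.13 ± 0.04, and of these falls TRIM8's was the one call held under every alternative.

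In the DKO, 20 members rose and 10 fell of 45 with ATRi, beside 26.1% of all genes called higher and 32.4% lower (58.5% in all). All 10 interferon-linked members rose, with a median log2 fold change of 1.33 against -0.02 over all genes, and each call held under every alternative. TRIM22 was 115 and 117 CPM with ATRi and 3.87 and 4.02 CPM without (4.88 ± 0.08, adjusted p = 4.06e-24, edgeR). TRIM21 was 85.9 and 90.0 CPM with ATRi and 19.8 and 18.9 CPM without (2.19 ± 0.06), and TRIM5 was 49.8 and 52.1 CPM with ATRi and 15.1 and 13.3 CPM without (1.84 ± 0.08). For all 3 the gap between the groups was wider than the spread of either pair of libraries.

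TRIM34 rose by 1.98 ± 0.20, TRIM69 by 1.34 ± 0.06, TRIM14 by 1.31 ± 0.05, TRIM38 by 1.20 ± 0.06, TRIM56 by 1.11 ± 0.05, TRIM25 by 0.95 ± 0.04 and TRIM26 by 0.58 ± 0.05. All 31 interferon-stimulated genes rose, while the p53 targets divided into 7 higher and 7 lower of 24. TRIM45 fell by 1.21 ± 0.21, TRIM65 by 0.86 ± 0.07, TRIM7 by 0.61 ± 0.07, TRIM32, a ligase mutated in a limb-girdle muscular dystrophy, by 0.58 ± 0.08, and TRIM59 by 0.45 ± 0.08. TRIM13 rose by 0.23 ± 0.08 and TRIM28 fell by 0.11 ± 0.04, neither with DESeq2, and TRIM8, TRIM24 and TRIM29 were not called. The effect of ATRi differed between the DKO and XRCC4 KO for 22 of 45 members, 15 higher and 7 lower in the DKO, beside 13% of all genes called higher and 21% lower (34% in all). All 10 interferon-linked members were among the 15, with a median difference of 1.22 in log2 fold change, against -0.05 over all genes. TRIM22 had the largest difference (5.01 ± 0.10, adjusted p = 1.7e-22, edgeR), with TRIM21 (1.87 ± 0.10), TRIM5 (1.80 ± 0.10), TRIM34 (1.47 ± 0.29) and TRIM38 (1.30 ± 0.09) next, and TRIM45 (-1.38 ± 0.44), TRIM7 (-0.62 ± 0.10), TRIM65 (-0.53 ± 0.11), TRIM59 (-0.51 ± 0.16) and TRIM32 (-0.34 ± 0.11) had the largest in the other direction. Of those 5, the calls of TRIM45, TRIM59 and TRIM32 were lost with DESeq2.

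With ATRi in both, 22 members were higher and 14 lower in the DKO than in XRCC4 KO, of 45, beside 35.7% of all genes called higher and 36.1% lower (71.8% in all). Of the interferon-linked members 6 rose and 1 fell, and the one lower was TRIM22, at 115 and 117 CPM in the DKO and 169 and 173 CPM in XRCC4 KO (-0.56 ± 0.04). TRIM69 (1.37 ± 0.07), TRIM21 (1.27 ± 0.06), TRIM56 (1.25 ± 0.05), TRIM25 (1.24 ± 0.04), TRIM38 (1.16 ± 0.06) and TRIM14 (1.01 ± 0.05) rose, as did all 31 interferon-stimulated genes, and TRIM5, TRIM26 and TRIM34 were not called. Among the other members TRIM15 (2.19 ± 0.31), TRIM9 (2.15 ± 0.44) and TRIM46 (1.91 ± 0.50) rose at levels of at most 3.95 CPM, and TRIM72 had 26 counts in the 2 DKO libraries and 0 in XRCC4 KO, at least 6.65-fold higher against a floor of 3 counts over the 2 libraries. TRIM29 fell by 1.96 ± 0.04, TRIM66 by 1.27 ± 0.09, TRIM16 by 0.93 ± 0.06, TRIM35 by 0.77 ± 0.05 and TRIM32 by 0.68 ± 0.08. Of the other p53-linked members TRIM59 (1.16 ± 0.11), TRIM8 (0.78 ± 0.07) and TRIM28 (0.44 ± 0.04) rose, and TRIM13 (0.38 ± 0.07) and TRIM24 (0.29 ± 0.08) fell by those amounts.

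In RPE-1 with ATRi, TRIM22 fell in p53 KO while most interferon-linked members rose. TRIM22 was 69.1 and 61.1 CPM in p53 KO and 146 and 155 CPM in WT (-1.21 ± 0.06, adjusted p = 8.18e-12, edgeR), while 8 of the other 9 interferon-linked members rose and TRIM5 was not called (-0.14 ± 0.08). The list's median was 0.66, against 0.03 over all genes, and 30 of 31 interferon-stimulated genes rose while 20 of 23 p53 target genes fell. Over the family 17 members rose and 12 fell of 45, beside 34.2% of all genes called higher and 32.5% lower (66.7% in all).

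TRIM14 was 61.3 and 55.9 CPM in p53 KO and 26.4 and 32.1 CPM in WT (1.00 ± 0.11), and TRIM25 was 303 and 321 CPM in p53 KO and 153 and 165 CPM in WT (0.97 ± 0.05). TRIM69 rose by 0.89 ± 0.07, TRIM21 by 0.84 ± 0.14, TRIM34 by 0.78 ± 0.14, TRIM38 by 0.54 ± 0.06, TRIM56 by 0.39 ± 0.05 and TRIM26 by 0.22 ± 0.06, the last not without WT replicate 1. Of the p53-linked members, TRIM32 (0.69 ± 0.06), TRIM13 (0.47 ± 0.08), TRIM24 (0.35 ± 0.10) and TRIM8 (0.21 ± 0.04) fell with TRIM22, TRIM28 rose by 0.23 ± 0.04, and TRIM29 and TRIM59 were not called. TRIM36, which binds microtubules, rose by 1.06 ± 0.13, and TRIM46 and TRIM65 fell by 0.72 ± 0.09 and 0.70 ± 0.10, as did TRIM7 by 0.79 ± 0.32, a call lost with DESeq2 and without any of 3 libraries, at 0.881 and 1.01 CPM in p53 KO and 1.36 and 1.90 CPM in WT. TRIM72 had 42 counts in p53 KO and 2 in WT, a ratio of 16.0 with a 95% exact interval of 4.15 to 136 for counting error only.

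**Figure D4:**
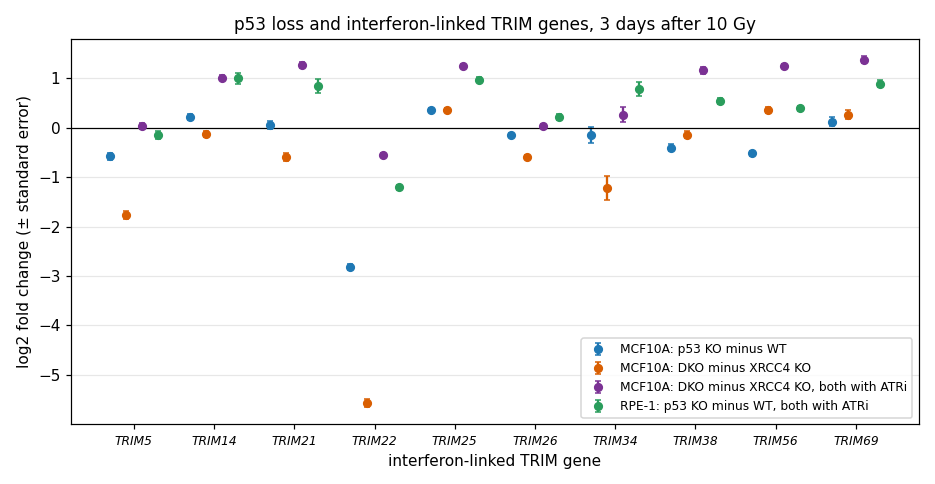
Log2 fold changes with standard errors of the 10 interferon-linked TRIM genes for p53 loss in 4 settings: p53 KO minus WT in MCF10A, DKO minus XRCC4 KO in MCF10A, the second pair with ATRi, and p53 KO minus WT in RPE-1 with ATRi. TRIM22 lies below 0 in all 4, at -2.81, -5.57, -0.56 and -1.21, and TRIM25 above 0 in all 4, whereas TRIM56 lies at -0.52 in MCF10A p53 KO and above 0 in the other 3.

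The WT cGAS group of RPE-1 had all 10 interferon-linked members higher than WT, with a median of 1.15 against 0.02 over all genes, and each of these calls held under every alternative. TRIM69 was 121 and 129.9 CPM in WT cGAS and 29.1 and 34.7 CPM in WT (1.97 ± 0.07). TRIM22 was 499.5 and 474 CPM in WT cGAS and 146 and 155 CPM in WT (1.69 ± 0.05, adjusted p = 2.24e-14, edgeR). TRIM21 was 87.8 and 81.6 CPM in WT cGAS and 23.0 and 26.5 CPM in WT (1.77 ± 0.13), and the groups did not overlap for any of the 3.

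TRIM14 (1.43 ± 0.10), TRIM38 (1.19 ± 0.06), TRIM5 (1.11 ± 0.07), TRIM25 (0.99 ± 0.05), TRIM26 (0.82 ± 0.06), TRIM34 (0.80 ± 0.14) and TRIM56 (0.47 ± 0.05) rose too. All 31 interferon-stimulated genes rose, and so did 19 of 23 p53 target genes, with 3 lower. Over the family 25 members rose and 9 fell of 45, beside 29.8% of all genes called higher and 30% lower (59.8% in all). TRIM47 rose by 1.46 ± 0.16 to 12.6 and 11 CPM, against 3.57 and 4.95 CPM in WT, and TRIM29 by 1.92 ± 0.46 from low counts, a call lost with DESeq2. TRIM8 was 320.5 and 324 CPM in WT cGAS and 191 and 195 CPM in WT (0.74 ± 0.04), and TRIM13 rose by 0.22 ± 0.08. TRIM45 (0.84 ± 0.20), TRIM6 (0.72 ± 0.22), TRIM16L (0.62 ± 0.09), TRIM59 (0.50 ± 0.12) and TRIM4 (0.31 ± 0.08) fell by those amounts, as did TRIM32 by 0.16 ± 0.06 and TRIM28 by 0.16 ± 0.04, and the calls of TRIM6, TRIM13 and TRIM32 were lost with DESeq2.

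TRIM27, TRIM37, TRIM2, TRIM23 and TRIM6 were the 5 members called least often among the 41 tested in all 3 experiments. TRIM27, the RET finger protein, was called in 2 of 18 comparisons, and its group means spanned 0.48, 0.30 and 0.08 log2 CPM within the first, second and RPE-1 experiments. It was 73.7 to 104 CPM in the first experiment, 82.7 to 107 CPM in the second and 70.7 to 75.5 CPM in RPE-1. TRIM37, a centrosomal ligase mutated in mulibrey nanism, was called in 3 comparisons with a widest span of 0.36, TRIM2, which ubiquitinates neurofilament light chain, in 3 with 0.48, and TRIM23, which carries an ARF-type GTPase domain, in 4 with 0.64. TRIM6 was also called in 4 but spanned 1.70 log2 CPM in the first experiment at 1.39 to 7.69 CPM. A gene that was not called is not shown to be unchanged.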

How the data were processed

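Polyadenylated RNA of 32 libraries in 16 groups of 2 was analysed. The authors deposited a table of estimated counts per gene, of which 96.04 to 97.28% per library were whole numbers, and a table of FPKM values, scaled by the authors for transcript length and library size. Tools listed in the submitters' processing notes were STAR, Cuffnorm, bcl2fastq, FastQC and DESeq2, with the build hg19, and neither versions nor roles are given. Estimated counts were rounded and fitted separately for the first MCF10A experiment (14 libraries, 15190 genes), the second (12 libraries, 16632 genes) and RPE-1 (6 libraries, 15469 genes), with edgeR 4.0.16 in R 4.3.3: low-count filter by group, TMM scaling, quasi-likelihood F-test and Benjamini-Hochberg adjustment over all genes tested, called below 0.05. A prior count of 2 was used for log2 CPM only. Fold changes are those of the edgeR fit with its default prior, and their standard errors were taken from the fold change and F. CPM uses TMM library sizes. The fit was tested on simulated counts.

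Total counts ran from 5590061 to 18585999 per library. Members and lists were chosen with earlier results of these data known. The text names all members of both lists, up to 5 called members per direction and comparison with the largest fold change, the 5 called least often, and those lowest and highest in FPKM, and a few others were named after their values were seen. Alternatives were DESeq2 1.42.0, RLE scaling, no low-count filter, only the groups compared, a replicate block and each library left out. Same-numbered libraries of the 4 WT groups of the first experiment deviated together across genes (r from 0.245 to 0.439 over 6 pairs of groups), a pairing read from the data and not from the labels, so those groups were also fitted alone with and without the block, an alternative chosen after seeing the data. Levels of 1 targeted gene are not reported here.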

Additional observations from a re-analysis of the deposited data

Results flagged for a closer look

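The effect of ATRi differed between the DKO and XRCC4 KO by a test of the difference itself (edgeR, adjusted p below 0.05) in 22 members. All values are differences of log2 fold changes, DKO minus XRCC4 KO. Among interferon-linked members the difference was 5.01 for TRIM22, 1.87 for TRIM21, 1.8 for TRIM5, 1.47 for TRIM34, 1.3 for TRIM38, 1.15 for TRIM14, 1.11 for TRIM69, 0.89 for TRIM25, 0.89 for TRIM56 and 0.63 for TRIM26. TRIM22 had an ATRi effect of 4.88 in the DKO and of -0.13 in XRCC4 KO. Among the remaining p53-linked members it was 0.33 for TRIM8, -0.18 for TRIM28, -0.34 for TRIM32 and -0.51 for TRIM59. Among the others it was 0.74 for TRIM62, 0.52 for TRIM4, 0.44 for TRIM23, 0.26 for TRIM41, -0.32 for TRIM16, -0.53 for TRIM65, -0.62 for TRIM7 and -1.38 for TRIM45. The calls of TRIM23, TRIM28, TRIM32, TRIM45, TRIM59 and TRIM62 were lost with DESeq2.

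XRCC4 KO against WT had groups that did not overlap at either time and lay in opposite directions at 5 days and at 3 days for 5 members (taken from both lists and from members called at either time), in separate experiments whose WT controls also differed in DMSO, and the difference was not tested. The log2 fold change was -1.25 at 5 days and 0.10 at 3 days for TRIM69, -1.09 and 0.33 for TRIM21, -0.93 and 0.28 for TRIM22, -0.7 and 0.53 for TRIM5, and 0.15 and -0.47 for TRIM62. TRIM5, TRIM22 and TRIM62 were not called at 5 days, and TRIM69 was not called at 3 days. How many of all genes met the same rule was not counted, so these 5 are not shown to be particular to the family.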

How the results depend on the processing

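No called fold change of a member changed sign under any alternative run. Of those not called, 4 to 17 did so per alternative, and 255 over all the fits that left out one library. Over 786 tests of members, RLE scaling lost 0 calls and added 5, and the replicate block over all groups lost 2 and added 7. The count of members called moved by over 1.5 times in these cases, and the cause was not tested. With only the groups compared, the first experiment gave 0 for 3 days against untreated (2 in the report, 8 at an unadjusted p below 0.05), 9 for 5 days against untreated (16), 0 for CDK1i against DMSO (11), 0 for CDK1i against untreated (10) and 2 for STING KO (15), all with edgeR. Of all genes these fits called 1, 1132, 0, 1 and 864 in that order. The reported fit called 991, 4458, 1838, 4371 and 2303. Without the low-count filter the first experiment gave 1 for 5 against 3 days (0), 6 for cGAS KO (10) and 9 for XRCC4 KO at 5 days (14). Beside these, 106 (40), 1576 (2055) and 2899 (3758) of all genes were called. DESeq2 gave 7 for 5 against 3 days and 19 for the DKO against p53 KO (29), beside 430 (40) and 5766 (8259) of all genes.

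Leaving out one library at a time gave 0 to 1 members for 3 days against untreated, 10 to 14 for 5 days against untreated, 0 to 8 for 5 against 3 days, 4 to 14 for CDK1i against DMSO, 8 to 9 for CDK1i against untreated, 1 to 9 for cGAS KO, 4 to 11 for STING KO and 6 to 13 for XRCC4 KO at 5 days. It gave 2 to 6 for ATRi in XRCC4 KO, and counts within 1.5 times of the reported one in the other comparisons. A lone library was then assumed to vary like the other groups. Fits of the 4 WT groups of the first experiment, chosen after seeing the data, gave 0 members for 3 days against untreated, 10 for 5 days against untreated, 0 for CDK1i against DMSO and 4 for CDK1i against untreated without a block, and 2, 15, 11 and 10 with the replicate block. Of all genes these fits called 9, 2134, 146 and 1970 without the block and 494, 3911, 1707 and 4086 with it. For 5 against 3 days the block gave 3 in either fit, against 0. Of all genes it then called 190 over all groups and 205 with the WT groups alone, against 40 in the report. The block moved no other count by over 1.5 times. Outside these WT groups same-numbered libraries did not deviate together (r from -0.049 to 0.062 in the second experiment and from -0.023 to 0.029 in RPE-1), and with the KO groups of the first experiment included r was -0.265 to 0.439 over 21 pairs. Depth limits TRIM6, TRIM9, TRIM15, TRIM45, TRIM46 and TRIM72, and TRIM7 and TRIM29 in RPE-1. TRIM45 had a median of 0.906 FPKM in MCF10A, with a lowest value of 0.209 and a highest of 2.466.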
